A study of Homo sapiens with 6 samples.

Results

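To describe the megakaryocyte and platelet genes in K562 cells that express an isoform of C/EBPα, 9 genes were taken by name from the deposited values: ITGA2B, ITGB3, GP9, GP1BB, PF4, TUBB1, FLI1, CD9 and NBEAL2. Of these, 7 had a row among the 17066 symbols of the 3 tables, while ITGB3 and FLI1 were not analysed here. K562 is an established leukemia line of human origin that resembles red cell precursors, and the study states that it makes neither isoform of C/EBPα on its own. It was stably transformed with a PiggyBac transposon that carries, under a Tet-inducible promoter, the wild type protein (CEBPA, 2 samples), the p30 isoform (P30, 2 samples) or, as an empty vector, neither (CTR, 2 samples). The study states that the wild type mRNA can give both the full-length protein and p30. Its western blot legend names both isoforms in the CEBPA line, so CEBPA against P30 may not set 1 isoform alone against the other. Cells of all 3 groups received 200 ng/ml doxycycline for 48 h, and each group is a separately made cell line, so that a difference between lines and an effect of the isoform cannot be told apart. The values are FPKM, that is, fragments scaled to transcript length and to the mapped fragments of the library, which can be compared between genes. The study tested the same pairs of groups with Cuffdiff, but its calls were not used here. Each table gives 1 FPKM per gene and group with its replicates pooled. No value thus has an SD or an interval, no change was tested here, and the read count behind a value is not given. The replicate numbers in the labels therefore add nothing to the comparisons below.

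Megakaryocytes are the bone marrow cells that shed platelets, and they share a precursor and several transcription factors with red cells. K562 cells can be steered toward either lineage, and phorbol esters are a known way to raise their megakaryocyte genes. The members stand for different parts of the platelet. ITGA2B and ITGB3 form the integrin αIIbβ3, the fibrinogen receptor; GP1BB and GP9 are subunits of the GPIb-IX-V receptor for von Willebrand factor; and CD9 is a tetraspanin of the platelet surface. PF4 is a chemokine of the α-granule, NBEAL2 a BEACH domain protein needed to form that granule, TUBB1 the β1 tubulin of the platelet's microtubule ring, and FLI1 an ETS family transcription factor.

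The promoters of the members that differed most between the groups are shown with that of ITGA2B, which differed least of those over 1 FPKM, because GATA, ETS and C/EBP factors are the ones usually discussed at these genes. RefSeq windows from 250 bases before to 50 bases after the start were at hand for 6 members. Each shown window matched the GRCh37 assembly, the build of the authors' alignment, at 1 position of its chromosome and has the start of the Gencode canonical transcript as its own. Sequences read 5′ to 3′ on the strand of the gene, and capitals mark a GATA motif (GATAA), an ETS motif (GGAAG) or a C/EBP motif (TTNNGNAA) on either strand. GP1BB is at chr22:19710812-19711111 on the plus strand, NBEAL2 at chr3:47020906-47021205 on the plus strand, TUBB1 at chr20:57594234-57594533 on the plus strand, CD9 at chr12:6309316-6309615 on the plus strand and ITGA2B at chr17:42466968-42467267 on the minus strand.
GP1BB: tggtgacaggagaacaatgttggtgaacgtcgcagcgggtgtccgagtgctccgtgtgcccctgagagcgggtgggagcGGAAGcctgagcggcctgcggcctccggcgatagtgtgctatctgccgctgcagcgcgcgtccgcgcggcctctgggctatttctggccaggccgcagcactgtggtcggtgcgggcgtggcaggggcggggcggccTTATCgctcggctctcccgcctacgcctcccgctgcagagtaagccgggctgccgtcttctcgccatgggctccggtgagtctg
NBEAL2: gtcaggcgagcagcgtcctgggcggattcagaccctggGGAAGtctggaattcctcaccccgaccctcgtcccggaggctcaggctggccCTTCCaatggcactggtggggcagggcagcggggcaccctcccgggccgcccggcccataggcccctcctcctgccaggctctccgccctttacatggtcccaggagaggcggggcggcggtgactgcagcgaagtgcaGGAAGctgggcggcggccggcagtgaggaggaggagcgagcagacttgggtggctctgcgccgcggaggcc
TUBB1: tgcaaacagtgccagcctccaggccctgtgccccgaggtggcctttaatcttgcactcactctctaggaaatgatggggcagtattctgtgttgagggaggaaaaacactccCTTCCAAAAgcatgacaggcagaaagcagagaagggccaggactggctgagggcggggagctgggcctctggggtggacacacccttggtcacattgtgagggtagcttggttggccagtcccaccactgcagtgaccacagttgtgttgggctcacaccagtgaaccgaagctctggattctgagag
CD9: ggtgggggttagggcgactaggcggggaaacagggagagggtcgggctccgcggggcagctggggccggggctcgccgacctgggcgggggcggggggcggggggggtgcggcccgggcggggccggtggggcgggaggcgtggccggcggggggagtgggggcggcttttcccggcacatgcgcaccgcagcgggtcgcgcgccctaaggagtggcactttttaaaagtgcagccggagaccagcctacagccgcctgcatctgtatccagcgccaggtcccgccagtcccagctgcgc
ITGA2B: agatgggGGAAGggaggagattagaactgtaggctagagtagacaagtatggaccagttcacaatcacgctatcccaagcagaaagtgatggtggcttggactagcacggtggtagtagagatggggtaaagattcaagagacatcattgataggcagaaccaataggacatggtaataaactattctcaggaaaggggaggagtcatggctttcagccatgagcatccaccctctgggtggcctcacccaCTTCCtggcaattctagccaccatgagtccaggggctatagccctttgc

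Of 10 windows for these 6 members, the one at the canonical start of each was counted. GATAA, 1 form of the GATA site, was found in 2 of these 6, those of GP1BB and GP9, against 22.7% of all 35116 promoter windows of the same length. Other forms, such as the GATAG left in lower case in the ITGA2B window, were not searched for. In GP1BB it lay on the minus strand from base -34 to base -30, counted from the start, and in GP9 on the plus strand from -67 to -63. GGAAG, a core of ETS sites, was found in 5 of the 6 and in 71.9% of all windows. TTNNGNAA, a loose form of the C/EBP site, was found in 1 of the 6, that of TUBB1, from -137 to -130, where it overlaps a GGAAG match by all but 1 of that motif's letters, and in 36.8% of all windows. None of the 3 motifs was in the CD9 window shown, but all 3 other windows of CD9, at starts of other transcripts, held GGAAG and 1 of them held TTNNGNAA. The other window of NBEAL2 held GGAAG. These matches are letters in a window and not measured sites.

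The levels of the members in CTR spanned separate ranges. GP1BB had 209.9 FPKM, above 97.6% of the 17023 symbols measured in all 3 groups, and NBEAL2 had 59.1 FPKM, above 89.0% of them. ITGA2B (12.6 FPKM), TUBB1 (8.20 FPKM) and CD9 (7.41 FPKM) were near the middle of all genes. PF4 had 0.0384 FPKM and GP9 was listed at 0, so that the control cells held RNA of some platelet genes and almost none of others. The order in P30 was GP1BB, NBEAL2, ITGA2B, CD9, TUBB1, GP9 and PF4, and in CEBPA it was GP1BB, NBEAL2, ITGA2B, TUBB1, CD9, GP9 and PF4. With 1 pooled value a group it cannot be said which neighbors in these orders differ beyond their spread.

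**Figure D1:**
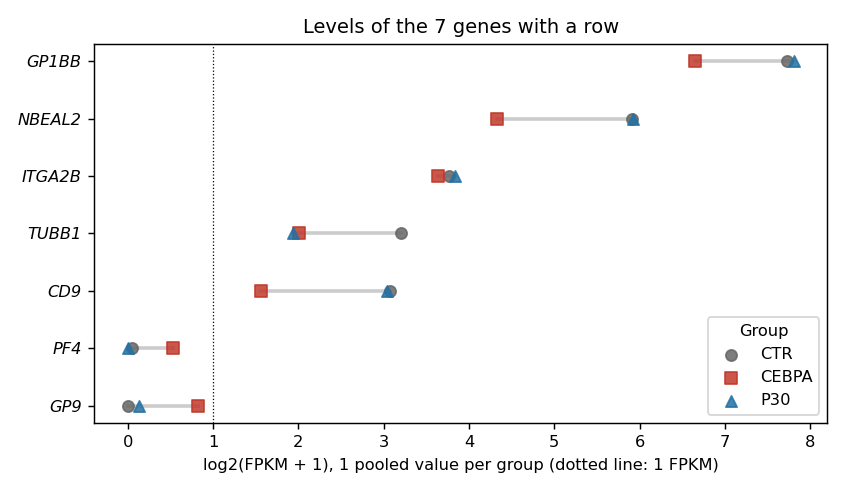
Level of each of the 7 members with a row, as log2(FPKM + 1), in CTR, CEBPA and P30 (1 pooled value per group, grey bars join the lowest and highest group). NBEAL2, CD9 and GP1BB stand apart in CEBPA, TUBB1 is low in both CEBPA and P30, ITGA2B hardly moves, and PF4 and GP9 stay below 1 FPKM (dotted line).

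Wild type C/EBPα was compared with the empty vector first. NBEAL2, CD9, TUBB1 and GP1BB were at least 2-fold lower in CEBPA than in CTR on the log2(FPKM + 1) scale, which understates the change of low genes, and ITGA2B was not. These are 4 of the 9 members, or of the 5 with over 1 FPKM in either group. Among the 13673 genes with over 1 FPKM in either group, 6.92% were at least 2-fold lower and 14.0% at least 2-fold higher. No member was 2-fold higher. The median change of the 5 members was -1.19, while the median of all genes was -0.01. In a bulk sample, fewer cells of a type and less RNA per cell cannot be told apart.

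NBEAL2 (ENSG00000160796, chromosome 3 from 47021156 to 47051194 in GRCh37) had 59.1 FPKM in CTR, 59.4 FPKM in P30 and 19.01 FPKM in CEBPA. Its level in CEBPA was thus 3.11-fold lower than in CTR, a log2 change of -1.59, and 1.65% of all genes had a lower change. CTR and P30 differed by only 0.01 on the log2 scale. CCDC12 overlaps the start of NBEAL2 on the opposite strand but shares no exonic base with it, and had a log2 change of -0.54 between CEBPA and CTR.

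CD9 (ENSG00000010278, chromosome 12 from 6308881 to 6347437) was also lowest in CEBPA, with CTR and P30 close together. It had 7.41 FPKM in CTR, 7.21 FPKM in P30 and 1.94 FPKM in CEBPA. The difference between CTR and CEBPA was 3.81-fold in FPKM and -1.51 as a log2 change. The CEBPA value is close to 1 FPKM, where the pseudocount weighs most, and with a pseudocount of 0.1 the log2 change was -1.88.

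GP1BB (ENSG00000203618, chromosome 22 from 19711062 to 19712294) had 209.9 FPKM in CTR, 223.2 FPKM in P30 and 99.0 FPKM in CEBPA. It was 2.12-fold lower in CEBPA than in CTR, with a log2 change of -1.08, close to the 2-fold limit. Its reads may not be its own. In a later Gencode release than the study's, all 959 exonic bases of GP1BB are shared, on the same strand, with a gene that reads through from its neighbor SEPTIN5. SEPTIN5 itself shares 412 of them (43.0%). SEPTIN5 (SEPT5) was not analysed here, so the parts of these genes in the value cannot be told apart. Of the partner subunits of its receptor, GP5 was not analysed here. GP1BA had 0.849 FPKM in CTR, 1.14 FPKM in CEBPA and 0.847 FPKM in P30. GP9 (ENSG00000169704, chromosome 3 from 128779622 to 128781249) reached 0.766 FPKM in CEBPA and 0.0943 FPKM in P30 and was listed at 0 in CTR. Both were far below GP1BB in each group.

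ITGA2B (ENSG00000005961, chromosome 17 from 42449548 to 42467017, minus strand) had 12.6 FPKM in CTR, 11.5 FPKM in CEBPA and 13.2 FPKM in P30. The widest gap between any of its groups, P30 against CEBPA, was 1.15-fold. Its log2 change of -0.12 in CEBPA vs CTR lay above that of 43.4% of all genes, near the middle of the distribution.

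**Figure D2:**
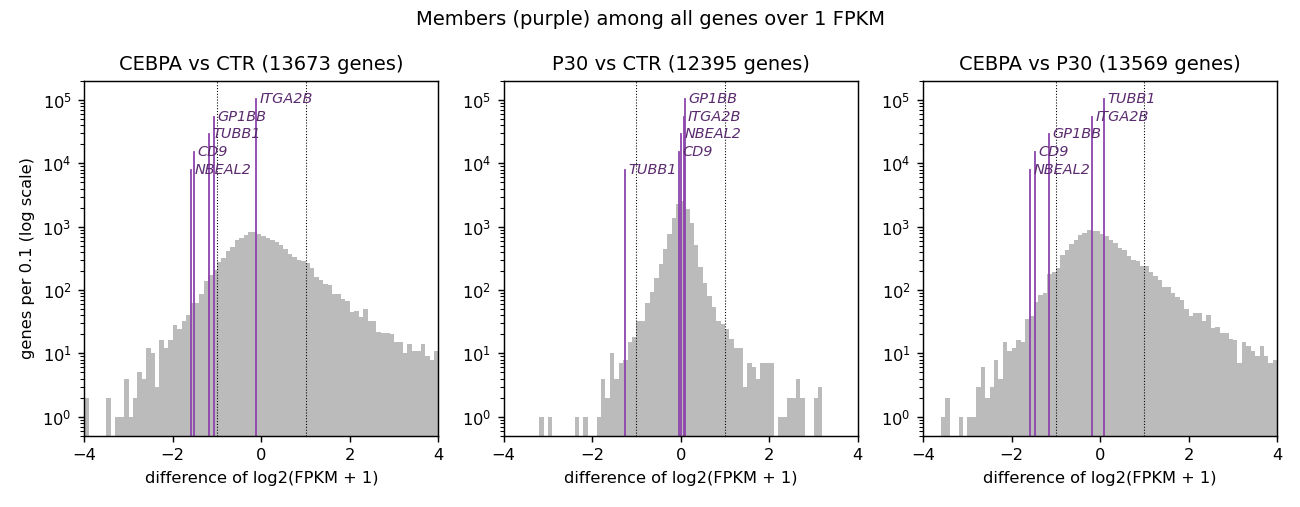
Differences of log2(FPKM + 1) for all genes over 1 FPKM in either group (grey, genes per 0.1, log scale, far tails outside the axis) and for the 5 members kept (purple lines, their heights only separate the names) in CEBPA vs CTR, P30 vs CTR and CEBPA vs P30. Dotted lines mark a 2-fold difference, which NBEAL2, CD9, TUBB1 and GP1BB pass in CEBPA vs CTR and TUBB1 in P30 vs CTR.

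The p30 isoform was then compared with the empty vector. TUBB1 was 2-fold lower in P30 than in CTR, and the other 4 members with over 1 FPKM were within 0.09 of 0 on the log2 scale. In this comparison 0.613% of 12395 genes were at least 2-fold lower and 1.02% at least 2-fold higher. The median change of the 5 members was 0.01, and that of all genes 0.02. GP9 and PF4 were below 1 FPKM in both groups and were not counted.

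TUBB1 (ENSG00000101162, chromosome 20 from 57594484 to 57601709) had 8.20 FPKM in CTR, 2.82 FPKM in P30 and 3.03 FPKM in CEBPA. It was therefore low in both lines with a C/EBPα isoform. The ratio of CTR to P30 was 2.90 and the log2 change -1.27, and 0.290% of all genes had a lower change in P30 vs CTR. In CEBPA vs CTR its log2 change was -1.19. Both comparisons share the CTR value. The last part of TUBB1 overlaps ATP5E (now ATP5F1E) on the opposite strand, with 1180 shared exonic bases, or 35.5% of the exonic bases of TUBB1. The libraries were made with a stranded kit, but the aligner was run with default parameters and the strand setting of the FPKM estimation is not given in the sources used here, so reads of this stretch may not be told apart. ATP5E had 103.5 FPKM in CTR, 62.7 FPKM in CEBPA and 95.0 FPKM in P30, with log2 changes against CTR of -0.71 in CEBPA and -0.12 in P30. Its part in the TUBB1 values was not tested.

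Between the CEBPA and P30 lines, NBEAL2, CD9 and GP1BB were at least 2-fold lower in CEBPA, or 3 of the 9 members. Of all 13569 genes with over 1 FPKM in either group, 5.79% were at least 2-fold lower and 13.1% at least 2-fold higher. The log2 changes were -1.60 for NBEAL2, -1.48 for CD9 and -1.16 for GP1BB. ITGA2B (-0.19) and TUBB1 (0.08) were close to the median of all genes, which was -0.04. Since CTR and P30 differed little for NBEAL2, CD9 and GP1BB, the comparison rests for them on the same CEBPA values as that with CTR.

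PF4 (ENSG00000163737, chromosome 4 from 74846528 to 74847744, minus strand) was near 0 in every group, with 0.0384 FPKM in CTR and 0.449 FPKM in CEBPA, and was listed at 0 in P30. A later Gencode release than the study's lists another gene on the same strand that shares 510 exonic bases of PF4 (52.1%). That gene was not analysed here, so their parts in the value cannot be told apart. PF4 lies in a cluster of CXC chemokine genes, small secreted proteins that attract neutrophils and other cells. After these values had been seen, the genes that start within 250 kb of its start were looked at. Gencode lists 23 of them, PF4 included, and 8 others than PF4 had a row. All 8 had a higher value in CEBPA than in CTR, and 0 were 2-fold different in P30 vs CTR. For IL8, CXCL1, PPBP, PF4V1 and PPBPP2 the latter was fixed in advance. Their values in CTR and P30 were all below 1 FPKM, where the log2(FPKM + 1) scale allows no 2-fold difference. CXCL3, CXCL2 and MTHFD2L were over 1 FPKM in CTR and could have differed. IL8, CXCL1 and PPBP exceeded 1 FPKM in CEBPA alone, so that their passing the filter already fixed the direction, and no share is set against that of all genes. The clustered chemokine genes are neighbors of related sequence and not independent of each other. MTHFD2L, which is among the 8 but is no chemokine gene, had 17.3, 26.8 and 18.5 FPKM in CTR, CEBPA and P30.

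PPBP, which encodes the platelet α-granule chemokine CXCL7 and starts 6.16 kb from PF4, had 0.0705 FPKM in CTR, 51.1 FPKM in CEBPA and 0.0223 FPKM in P30. Its log2 change in CEBPA vs CTR was 5.60, by far the highest among the genes of the lists used here for megakaryocytes. IL8 (now CXCL8), the main neutrophil attractant, had 0.298, 27.8 and 0.279 FPKM in CTR, CEBPA and P30. CXCL1 had 0.149, 10.8 and 0.0568 FPKM in the same order, CXCL3 1.95, 15.8 and 1.65 FPKM, and CXCL2 1.10, 4.97 and 0.756 FPKM. PF4V1, a close copy of PF4, was listed at 0 in CTR and P30 and had 0.871 FPKM in CEBPA, and reads of such copies can be split between them. PPBPP2, a non-coding gene of the cluster, was low like PF4, with 0.0107, 0.336 and 0.00946 FPKM in CTR, CEBPA and P30. The genes around PF4 thus ranged in CEBPA from this value to the 51.1 FPKM of PPBP.

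**Figure D3:**
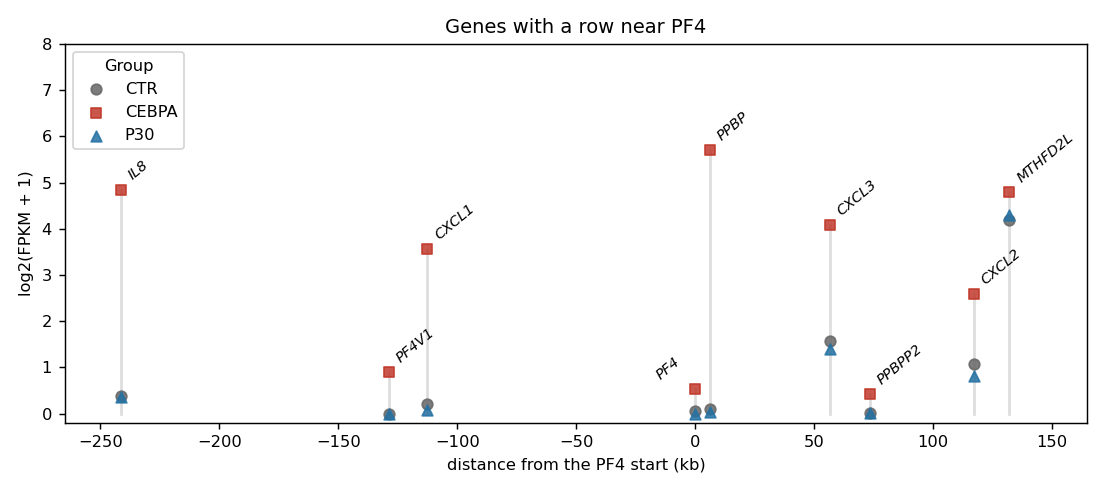
Level, as log2(FPKM + 1), of PF4 and the 8 other genes with a row within 250 kb of its start, by distance from that start in kb, in CTR, CEBPA and P30 (1 pooled value per group). PPBP, IL8, CXCL1, CXCL3 and CXCL2 are at least 2-fold higher in CEBPA than in CTR, PF4, PF4V1 and PPBPP2 remain below 1 FPKM, and CTR and P30 lie close together.

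A wider list of 98 genes of megakaryocytes and platelets, without the 9 members, was used to set the members beside the rest of the lineage, and 83 of them had a row. In CEBPA vs CTR, 76 of these had over 1 FPKM in either group. Of the 76, 15 (19.7%) were at least 2-fold lower and 11 (14.5%) at least 2-fold higher, beside 6.92% and 14.0% of all genes, and their median change was 0.04. The share of higher genes was thus near that of all genes, and 4 of the 11 (PPBP, RAB27B, RGS18 and SELP) exceeded 1 FPKM in CEBPA but not in CTR. In P30 vs CTR, 0 of 70 were 2-fold lower and 2 (2.86%) 2-fold higher, beside 0.613% and 1.02% of all genes. In CEBPA vs P30, 14 of 76 (18.4%) were lower and 11 (14.5%) higher, beside 5.79% and 13.1% of all genes, with a median of -0.20. The higher share was again near that of all genes.

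Among the transcription factors of this list, 7 of 16 with over 1 FPKM were at least 2-fold lower in CEBPA than in CTR and 1 was higher (43.8% and 6.25%, beside 6.92% and 14.0% of all genes). GATA1, the main activator of erythroid and megakaryocyte genes, had 184.6 FPKM in CTR, 53.1 FPKM in CEBPA and 192.9 FPKM in P30. GFI1B, a repressor needed in both lineages, had 63.7, 15.4 and 44.2 FPKM in the same order. NFE2, which drives the last steps of platelet formation and is a known activator of TUBB1, had 166.8, 61.5 and 130.6 FPKM. TAL1 (71.7, 25.5 and 60.4 FPKM), GATA2 (57.4, 24.3 and 51.7 FPKM), LYL1 (103.4, 27.8 and 102.4 FPKM) and ZFPM1 (8.54, 3.71 and 9.45 FPKM), the partner of GATA1, were the others. The 7 log2 changes in CEBPA vs CTR ran from -1.98 for GFI1B to -1.02 for ZFPM1.

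RUNX1, a factor of megakaryocytes and of early blood cells, had another order of groups. It had 17.9 FPKM in CTR, 33.3 FPKM in CEBPA and 47.1 FPKM in P30, and its log2 change in P30 vs CTR was 1.35. RUNX1 was, with the signalling gene RGS18 (0.0523 FPKM in CTR and 1.54 FPKM in P30, so over 1 FPKM in P30 but not in CTR), the 2-fold higher part of the wider list in that comparison. MEIS1, a homeobox factor of stem cells and megakaryocytes, was 2-fold higher in CEBPA (2.23, 8.67 and 2.15 FPKM in CTR, CEBPA and P30). LDB1, a scaffold of the GATA1 and TAL1 complex, was 2-fold lower in CEBPA vs P30 (43.0 and 89.9 FPKM). The ETS factor ETS1 was below 1 FPKM in every group, at 0.0946, 0.921 and 0.125 FPKM, and ERG was not analysed here.

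**Figure D4:**
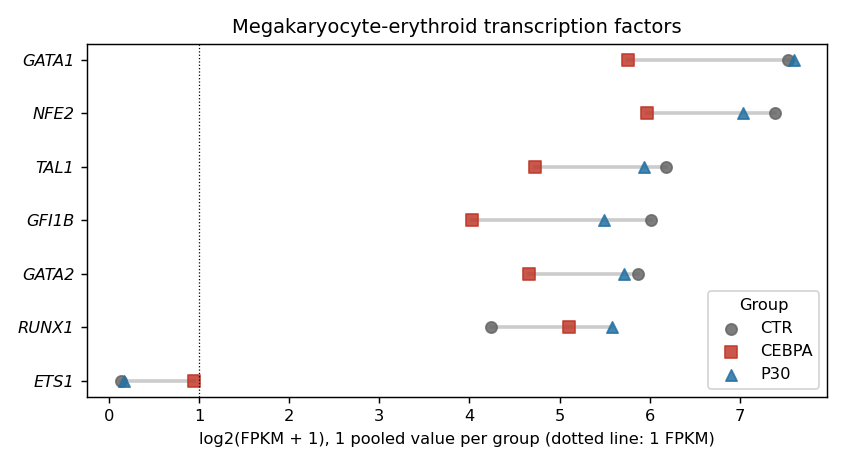
Level, as log2(FPKM + 1), of 7 transcription factors of megakaryocytes and red cells in CTR, CEBPA and P30 (1 pooled value per group, dotted line at 1 FPKM). GATA1, NFE2, TAL1, GFI1B and GATA2 are lowest in CEBPA, RUNX1 is highest in P30, and ETS1 stays below 1 FPKM.

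Surface receptors and signalling genes of platelets were split. In CEBPA vs CTR, 2 of the 12 receptors with over 1 FPKM were at least 2-fold lower and 2 higher (16.7% each, beside 6.92% and 14.0% of all genes). The lower ones were TBXA2R, the thromboxane receptor (4.42 FPKM in CTR and 1.05 FPKM in CEBPA), and P2RX1, an ATP-gated channel (4.10 and 1.38 FPKM). P2RY1, an ADP receptor, was higher (5.01 and 21.95 FPKM), and so was SELP, the P-selectin of the α-granule membrane, which passed 1 FPKM in CEBPA alone, at 1.32 FPKM, and was listed at 0 in CTR. In CEBPA vs P30, 3 of the 12 receptors were 2-fold higher and 0 lower (25.0% and 0%, beside 13.1% and 5.79% of all genes). They were P2RY1, SELP and CD36, a receptor for thrombospondin (6.0 and 1.82 FPKM). Of 15 signalling genes, 2 were at least 2-fold lower in CEBPA than in CTR and 2 higher (13.3% each, beside 6.92% and 14.0% of all genes). The higher share was near that of all genes, and 1 of the 2, RGS18, exceeded 1 FPKM in CEBPA but not in CTR. PTGS1, the cyclooxygenase that makes the precursor of thromboxane, had 51.8 FPKM in CTR, 36.4 FPKM in P30 and 5.35 FPKM in CEBPA. Its log2 change of -3.06 in CEBPA vs CTR was the lowest of the wider list. FERMT3, the kindlin that activates αIIbβ3, was also lower in CEBPA (65.8 and 25.3 FPKM), whereas the exchange factor ARHGEF3 was higher (1.61 and 5.94 FPKM). RGS18 was higher in CEBPA as well, at 2.22 FPKM. In CEBPA vs P30, 3 of the 15 signalling genes were 2-fold lower and 1 higher (20.0% and 6.67%, beside 5.79% and 13.1% of all genes). The lower ones were PTGS1, FERMT3 and JAK2, the kinase of the thrombopoietin receptor (4.80 and 12.1 FPKM).

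Genes of granules and of the cytoskeleton were split as well. Of 15 genes of granule biogenesis and secretion, 2 (13.3%) were at least 2-fold lower in CEBPA than in CTR and 3 (20.0%) higher, beside 6.92% and 14.0% of all genes. UNC13D (101.9 FPKM in CTR and 45.6 FPKM in CEBPA) and SNAP23 (86.5 and 41.2 FPKM), which serve granule release, were lower, as NBEAL2 was. HPS4 (15.2 and 54.0 FPKM) and RAB32 (21.8 and 48.6 FPKM), which serve lysosome-related organelles, and RAB27B (0.615 and 5.16 FPKM) were 2-fold higher. RAB27B exceeded 1 FPKM in CEBPA but not in CTR. VPS33B and VIPAS39, which like NBEAL2 are needed for α-granules, had 14.9 and 9.52 FPKM in CTR and 8.40 and 6.02 FPKM in CEBPA, short of 2-fold. Of 6 granule cargo genes with over 1 FPKM, 2 (33.3%) were at least 2-fold higher in CEBPA than in CTR and 1 (16.7%) lower. All genes had 14.0% and 6.92%. SRGN, the proteoglycan that holds PF4 in the granule, was higher in CEBPA (123.7 and 635.9 FPKM) and TIMP1 lower (278.9 and 137.2 FPKM). PPBP was the other higher gene and exceeded 1 FPKM in CEBPA but not in CTR. In CEBPA vs P30, 3 of the 6 were 2-fold higher and 1 lower, beside 13.1% and 5.79% of all genes. The higher ones were SRGN, PPBP and SPARC (42.6 FPKM in CEBPA and 20.1 FPKM in P30). CLU was lower (5.42 and 12.96 FPKM). Of 12 cytoskeletal genes, MYL9, a myosin light chain, was lower in CEBPA than in CTR (16.9 and 6.51 FPKM) and the tropomyosin TPM4 higher (41.3 and 175.0 FPKM). These shares of 8.33% each stood beside 6.92% and 14.0% of all genes, the lower one near that of all genes. WAS was 2-fold lower in CEBPA than in P30 (14.0 and 31.7 FPKM), or 8.33% of the 12 beside 5.79% of all genes.

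**Figure D5:**
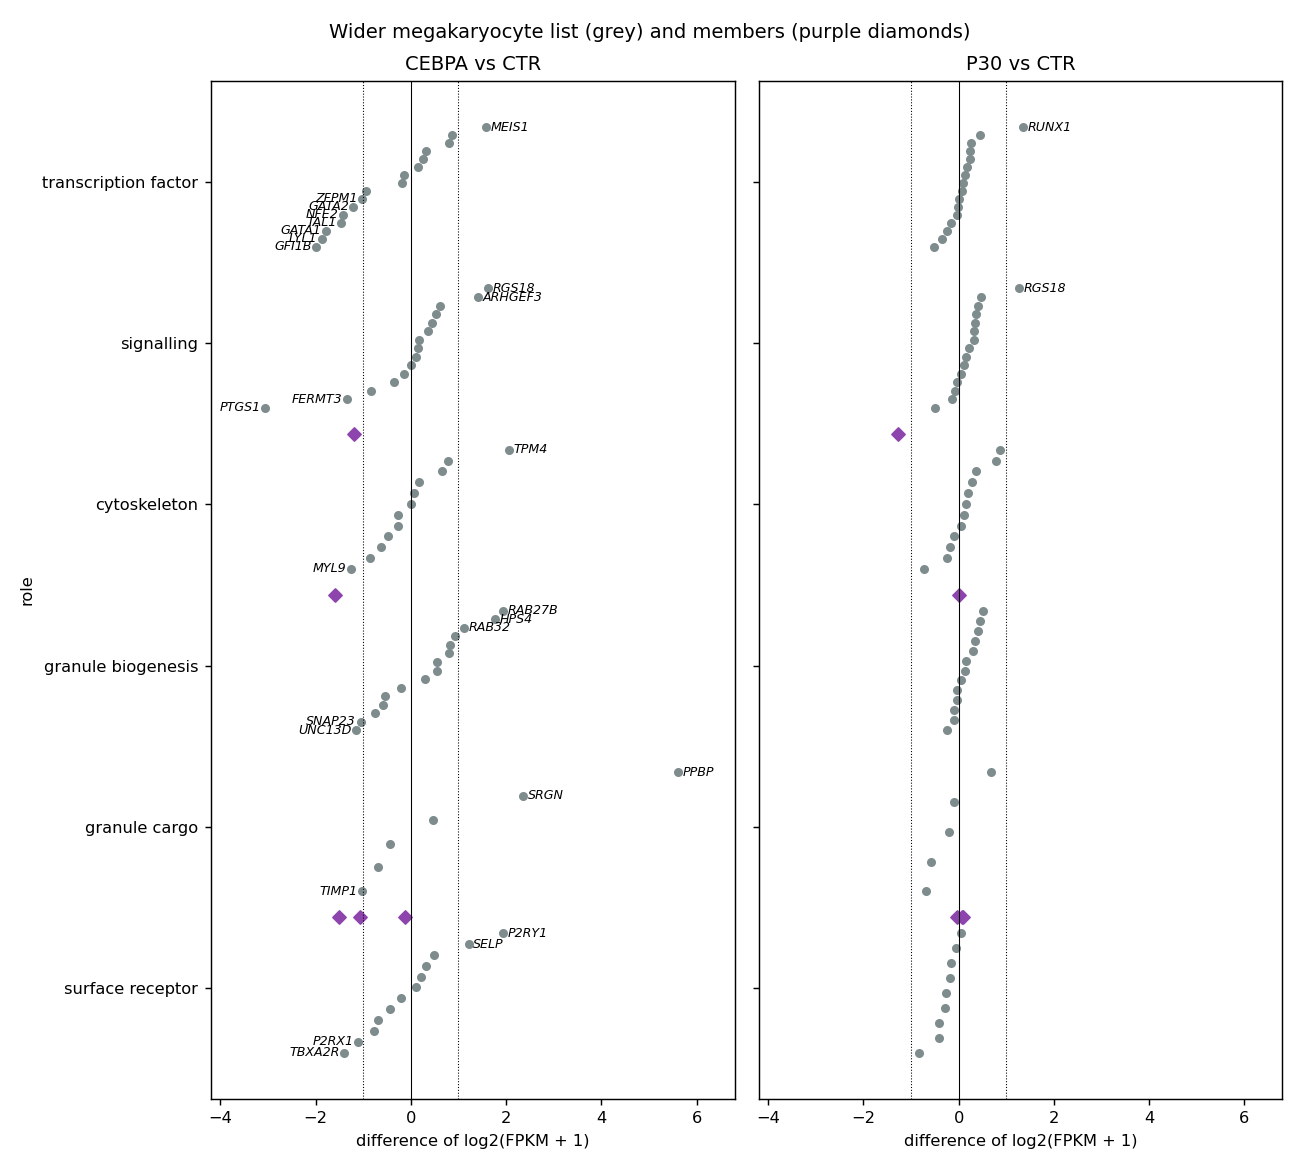
Differences of log2(FPKM + 1) in CEBPA vs CTR and P30 vs CTR for the genes of the wider megakaryocyte list over 1 FPKM in either group (grey points, by role, spread vertically for legibility) and for the members (purple diamonds above their role). Dotted lines mark 2-fold. In CEBPA vs CTR 15 genes lie below and 11 above these lines, and in P30 vs CTR RUNX1 and RGS18 lie above.

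Markers of other cell types differed between the same groups. The erythroid markers, of which 5 of 10 had a row and all 5 exceeded 1 FPKM in each group, summed to 1546 FPKM in CTR, 516 FPKM in CEBPA and 931 FPKM in P30. The granulocyte markers, 7 of 10 with a row, summed to 50.2, 11817 and 79.5 FPKM in the same order. Of these 7, 5 lay at or below 1 FPKM for CTR, against 1 for P30 and 0 for CEBPA. LYZ made up most of the CTR and P30 sums, at 45.5 and 47.6 FPKM. From CTR to P30, S100A8 rose from 0.551 to 9.54 FPKM and S100A9 from 0.416 to 11.1 FPKM. S100A12 rose from 0.221 to 4.01 FPKM and CEBPE from 0.560 to 4.31 FPKM. CSF3R hardly differed (2.91 and 2.80 FPKM), and LTF stayed below 1 FPKM. The lymphoid markers, 3 of 5 with a row, summed to 13.2, 4.34 and 13.2 FPKM for CTR, CEBPA and P30. Their part in the differences of the members was not tested.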

How the data were processed

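RNA-seq of 6 K562 samples was used, with 2 samples per line (CTR, CEBPA and P30). The authors deposited FPKM values, made, per the study's methods, by TopHat alignment to hg19, Cufflinks assembly on Gencode and Cuffdiff estimation. Both replicates of a group, which came from separate sequencing runs, are pooled in 1 value, and the normalization setting of Cuffdiff is not given in the sources used here. The study's methods give another instrument, another read length and library preparation at an outside institute for the second run. The study gives the sequenced reads as a range over its samples, but the tables give none per sample or gene. All 6 columns were used and 0 left out, and no test was possible from 1 pooled value per group. The study's own Cuffdiff tests of these pairs, at a set false discovery rate, were not used.

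Differences of log2(FPKM + 1) were taken within each table among genes with over 1 FPKM in either group, and 2-fold was used as a rule of size. Values of a group were the same in every table for symbols with 1 row. PF4 and GP9 had no row for CTR and P30, and these values came from the other tables. The members and lists were chosen with earlier results of these data known. The genes named are the members, genes of the wider list past 2-fold in any pair and over 5 FPKM in a group, 8 transcription factors, and the 3 genes nearest in pattern to each member past 2-fold. Of the transcription factors of the wider list, 1 is not reported here and was left out of its counts. The neighbors of PF4 and the genes SELP, P2RX1, TBXA2R, RGS18, GP1BA, VPS33B, VIPAS39, ATP5E and CCDC12 were named after their values were seen. Alternatives were a pseudocount of 0.1, centring on the median, no filter, a filter at 5 FPKM, summed symbols and genes in all 3 tables. Positions and overlaps are from a later Gencode release than the study's, on GRCh37, and older symbols from RefSeq. Python 3.11.15, numpy 2.4.6, pandas 2.3.3 and matplotlib 3.10.9 were used.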

Additional observations from a re-analysis of the deposited data

How the results depend on the processing

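No paired analysis was possible because the replicates of a group are pooled in 1 deposited value, and no replicate block or left-out replicate could be run for that reason. In place of a replicate spread, a shift of 0.20 on the log2 scale, the scaled median absolute deviation of all genes in P30 vs CTR, or of 1.5 times in a count was taken as a move. The 33 results were recomputed 197 times in all: 189 values were within these bounds and 8 moved. None past 2-fold changed sign, while 3 values near 0 did: the median of the wider list in CEBPA vs CTR (0.04, and -0.07 with a filter at 5 FPKM), and NBEAL2 in P30 vs CTR and the members' median there, which is its value (0.01, and -0.02 when centred). With a pseudocount of 0.1 the median change of the members in CEBPA vs CTR was -1.41, and 1 gene of the wider list was 2-fold lower in P30 vs CTR. With a filter at 5 FPKM, 1 gene of that list was 2-fold higher in P30 vs CTR. Without a filter the median of the members in CEBPA vs P30 was -0.19, because GP9 and PF4 then entered it. The other 4 values that moved were single members under a pseudocount of 0.1, all larger in size: CD9 (-1.88) and TUBB1 (-1.41) in CEBPA vs CTR, TUBB1 (-1.51) in P30 vs CTR and CD9 (-1.84) in CEBPA vs P30. How many reads stand behind low values such as those of GP9 and PF4 is not given in the tables.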

Other observations

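For each member at least 2-fold changed in any pair of groups, the 3 genes nearest in pattern were taken among 13692 others with over 1 FPKM in any group, by the distance between their log2(FPKM + 1) values in CTR, CEBPA and P30. With 3 pooled values per gene this likeness is a description, and many unrelated genes will lie close. Nearest to NBEAL2 were ZNF385A, PCK2 and PKLR, the pyruvate kinase of red cells and liver, at distances from 0.17 to 0.18. PKLR had 55.1 FPKM in CTR, 19.5 FPKM in CEBPA and 53.6 FPKM in P30. Nearest to CD9 were NFIX, IL10RA and CCDC85C, from 0.061 to 0.14, and nearest to GP1BB were AP000350.10, HSPB1 and KRT8, from 0.049 to 0.13. TUBB1, low in both CEBPA and P30, had more distant neighbors: TF, the transferrin gene, SNORA45 and H19, from 0.25 to 0.34. TF had 9.15 FPKM in CTR, 3.29 FPKM in CEBPA and 2.35 FPKM in P30.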
